A study of Mus musculus with 32 samples.

Results

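HNF4A ChIP-seq peaks were examined at 8 genes that encode transcription factors of intestinal identity: the caudal homeobox factors Cdx1 and Cdx2, the GATA factors Gata4, Gata5 and Gata6, the Krüppel-like factors Klf4 and Klf5, and the ETS factor Elf3. The peak lists of the 8 HNF4A libraries were joined into merged sites (overlap of 1 bp or more), and a merged site was kept when it lay in a gene body or within 20 kb of either end (GENCODE M1, mm9). This gave 70 of 45552 merged sites. The libraries came from jejunal intestinal epithelial cell (IEC) preparations of male C57BL/6J mice aged 10 to 12 weeks, 1 library per mouse. In GF+HFM, 4 mice were reared germ-free (GF), and in CV+HFM, 4 ex-GF mice had been colonized with a conventional microbiota (CV) for 14 days. All 8 mice received a high-fat meal (HFM) of egg yolk emulsion by gavage and were sampled 2 hours later. The preparations were not sorted, and they hold mostly villus epithelium with some crypt and mesenchymal cells. In such mixtures, fewer bound cells and less binding per cell cannot be told apart.

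HNF4A is a nuclear receptor that binds DNA as a dimer, at direct repeats of a short element, and is known for its part in enterocyte differentiation. CDX1 and CDX2 are homeodomain proteins, and CDX2 sets intestinal against foregut identity. GATA4 is known for keeping jejunal apart from ileal character, and GATA6 is expressed along the whole intestine. KLF5 is known from proliferating crypt cells and KLF4 from differentiated villus and goblet cells. ELF3 is an epithelial ETS factor needed for normal villus differentiation.

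The lists differed in length, from 31061 to 36846 peaks in GF+HFM and from 4533 to 29345 in CV+HFM, and replicates 2 and 4 of CV+HFM were the shortest, with 9206 and 4533. Median peak width ranged from 298 to 464 bp over the GF+HFM lists, and from 103 to 318 bp over the CV+HFM lists. The lists carry positions without a read count or peak height, so the depth is unknown, and peak width stood in for strength as a percentile among all peaks of the same list. Where a library had several peaks in a site, the widest gave its width and percentile. The part of list length in the values below was not tested. Among marker genes, 10 of 10 enterocyte genes had a site, with a median of 10 per window, and 8 of 10 genes of other cell types or organs had one, with a median of 2. Of all 22367 protein-coding genes, 14640 had a site, and the median was also 2. The windows of the enterocyte genes Apoa1 and Apoa4 overlap, so a site can count for both.

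The reference sequence (mm9, plus strand, 5′ to 3′) is shown for 6 of the 8 genes, for the site of each that the most libraries called. It covers the bases that the widest peaks of all calling libraries share, at most 300. Ties went to the higher width percentile. No sequence is shown here for Cdx1 and Gata6. In capitals is any match to the HNF4 motif CAAAGTCCA or, with up to 2 mismatches, to the direct repeat AGGTCANAGGTCA, on either strand. The bases are chr5:148110541-148110840 for Cdx2, chr14:63856153-63856201 for Gata4, chr2:180049160-180049382 for Gata5, chr4:55527725-55527861 for Klf4, chr14:99704380-99704491 for Klf5 and chr1:137147944-137148056 for Elf3. For Gata4 and Elf3 these are the second choices. The widest peaks at the first Gata4 site share no base, and the shared bases of the first Elf3 site are exonic. The Elf3 site found in every GF+HFM list and no CV+HFM list, chr1:137133419-137133483, is shown last.
Cdx2, downstream: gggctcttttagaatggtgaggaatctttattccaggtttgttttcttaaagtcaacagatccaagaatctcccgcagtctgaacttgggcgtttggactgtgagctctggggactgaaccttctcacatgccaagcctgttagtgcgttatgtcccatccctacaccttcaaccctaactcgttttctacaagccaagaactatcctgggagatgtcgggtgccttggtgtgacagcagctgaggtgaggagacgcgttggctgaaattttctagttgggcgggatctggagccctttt
Gata4, intron 2: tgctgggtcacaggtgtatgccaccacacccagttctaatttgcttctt
Gata5, downstream: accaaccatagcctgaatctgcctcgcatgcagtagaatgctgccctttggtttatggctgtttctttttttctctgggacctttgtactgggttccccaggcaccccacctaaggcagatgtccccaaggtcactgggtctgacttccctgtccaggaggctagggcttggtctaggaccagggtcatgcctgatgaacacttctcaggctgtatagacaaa
Klf4, downstream: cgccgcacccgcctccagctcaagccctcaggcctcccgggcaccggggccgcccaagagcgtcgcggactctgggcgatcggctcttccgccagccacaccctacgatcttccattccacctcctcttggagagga
Klf5, intron 3: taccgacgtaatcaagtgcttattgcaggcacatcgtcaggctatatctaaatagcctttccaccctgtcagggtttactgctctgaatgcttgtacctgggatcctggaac
Elf3, downstream: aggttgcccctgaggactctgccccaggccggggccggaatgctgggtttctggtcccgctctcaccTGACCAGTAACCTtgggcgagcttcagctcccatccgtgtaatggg
Elf3, called in GF+HFM only: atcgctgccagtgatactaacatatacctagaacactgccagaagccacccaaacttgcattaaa
The Elf3 site in 7 libraries held the single match among these 7 stretches, a direct repeat with 2 mismatches on the minus strand.

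Closer matches lay at other sites of the 8 genes, and 4 are shown with 40 bases on either side, chosen after the matches were seen. They are exact HNF4 motifs and direct repeats with 1 mismatch. At the Gata5 direct repeat, an overlapping repeat with 2 mismatches is also in capitals. Another exact HNF4 motif, at the Gata4 site from chr14:63832033, is not shown. The bases are chr14:99680398-99680486 for Klf5, chr2:180061792-180061880 and chr2:180050831-180050923 for Gata5, and chr4:55546231-55546323 for Klf4.
Klf5, upstream, HNF4 motif: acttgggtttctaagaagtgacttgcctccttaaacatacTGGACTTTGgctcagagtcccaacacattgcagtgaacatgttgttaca
Gata5, intron 6, HNF4 motif: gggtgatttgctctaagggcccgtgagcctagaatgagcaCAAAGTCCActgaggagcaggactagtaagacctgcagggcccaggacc
Gata5, downstream, direct repeat: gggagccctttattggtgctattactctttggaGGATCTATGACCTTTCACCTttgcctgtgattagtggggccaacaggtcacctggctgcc
Klf4, upstream, direct repeat: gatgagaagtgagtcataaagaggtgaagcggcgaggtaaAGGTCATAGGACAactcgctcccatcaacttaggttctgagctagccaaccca
The Klf5 site was called in 8 libraries, the Gata5 site in intron 6 in 1, and the Gata5 and Klf4 sites with the direct repeat in 6 each. Across 200 bp windows at the midpoints of the sites, both strands, the HNF4 motif occurred in 3 of 70 sites (4.29%) against 4.89% of 45324 windows of all sites. The direct repeat with up to 2 mismatches occurred in 9 of 70 (12.9%) against 12.9%. The motifs of the factors that these genes encode were counted in the same windows: the GATA motif, spelled AGATAA, in 9 of 70 (12.9%) against 15.8%, the CDX motif (CNATAAA) in 6 (8.57%) against 10.6%, and the KLF motif (CCNCNCCC) in 22 (31.4%) against 23.5%. The ETS motif AGGAAGT was in 0 of 70 windows, a count that allows a share of up to 4.29%, against 7.03% of all windows. The HNF4 and direct repeat motifs can overlap each other, and a match describes the letters of the window only.

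HNF4A sites were numerous around these genes. The 8 windows held a median of 9 sites each, with a range from 3 at Klf4 to 14 at Elf3, and the median over 22367 protein-coding genes was 2. At least 1 site called in all 8 libraries lay at 4 of the 8 genes, Cdx1, Gata4, Gata5 and Klf5. Such a site lay at 3767 of 22367 protein-coding genes (16.8%), and 14640 of the 22367 had any site. The genes were not matched for their number of sites. Elf3 had the densest window, with 31.2 sites per 100 kb, which is the 99.9th percentile of protein-coding genes, and Cdx2 followed with 21.5. Cdx1 had 10 sites at 17.4 per 100 kb, Gata5 had 8 at 16.1, Gata4 had 13 at 11.5, Gata6 had 6 at 8.21 and Klf4 had 3 at 6.62, with Klf5 (6 sites) between Gata4 and Gata6 in density. The other lists put these numbers in context. The 28 other intestinal transcription factor genes had a median of 8 sites, led by Tcf7l2 with 27, Vdr with 23 and Hnf4a with 20, and 24 of them had a site. The 23 family relatives of the 8 genes had a median of 4, led by Elf1 with 14, Elf4 with 11 and Klf3 with 10, and 21 had a site. A site called in all 8 libraries lay at 9 of the 28 and at 6 of the 23. It lay at 8 of 10 enterocyte genes and 0 of 10 genes of other cell types or organs.

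**Figure D1:**
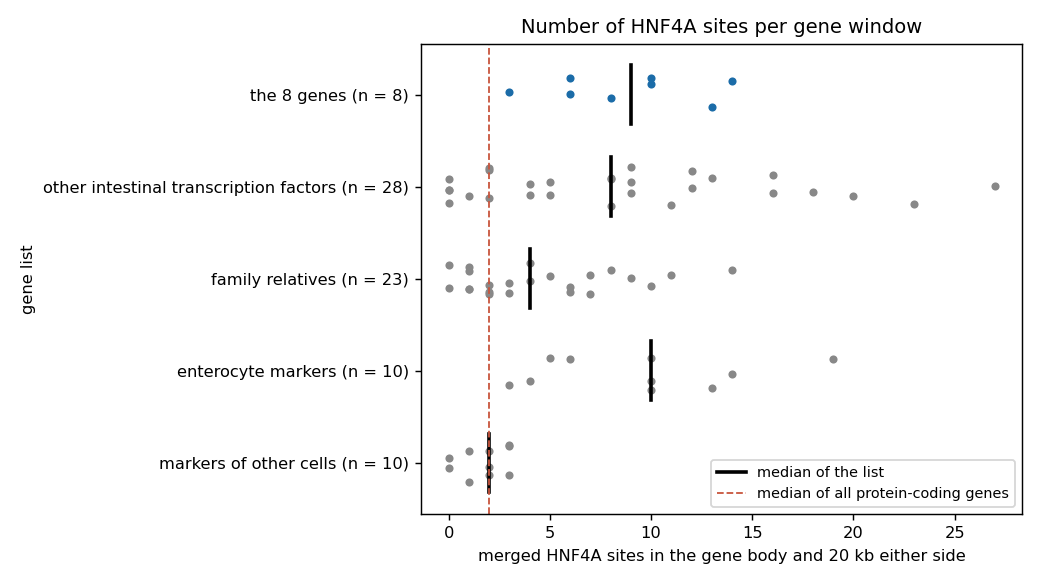
Number of merged HNF4A sites in the gene body and 20 kb either side (x axis) for each gene of 5 lists (rows), 1 point per gene with vertical jitter. Black bars are list medians, and the dashed line is the median of 2 over all protein-coding genes. The 8 genes lie between 3 and 14.

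The sites lay mostly outside exons. Of the 70, 25 were upstream and 15 downstream of the gene, 18 were in introns, 6 had their midpoint in an exon, and 6 covered an annotated transcript start, at Cdx2, Gata4 (2 sites), Gata6, Klf5 and Elf3. Within 1 kb of the start of a protein-coding gene lay 12 of 70 sites (17.1%), against 14.2% of all sites. In 10 of the 70, the site also lay in or over another protein-coding gene: Slc6a7 and Pdgfrb at Cdx1, Prhoxnb at Cdx2 (3 sites), Neil2 at Gata4, Gm14318 at Gata5 and Rnpep at Elf3 (3 sites). The nearest sites to the 20 kb limit were at Elf3, 19411 and 18221 bp from the gene and called in 1 and 6 libraries, and, just outside, at Gata4 (20393 bp) and Gata6 (21714 bp), called in 4 and 6. Another 28 sites lay between 20 and 50 kb.

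**Figure D2:**
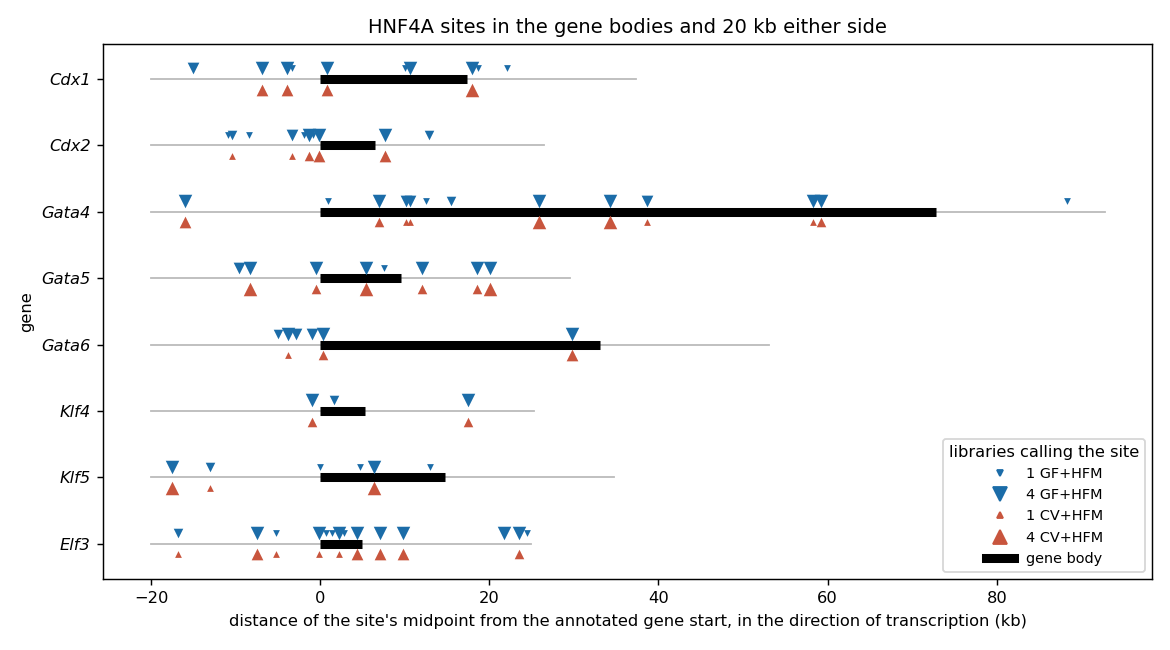
Midpoints of the 70 HNF4A sites by distance from the annotated gene start in the direction of transcription (x axis, kb) for each gene (rows). Black bars are gene bodies and grey lines the windows, blue triangles above show GF+HFM and red triangles below CV+HFM, and triangle area grows with the number of libraries calling the site. Many small blue triangles have no red partner, and no red triangle stands without a blue one.

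The question addressed by the comparison was whether HNF4A binding after the meal differed with microbes. Of the 70 sites, 61 had more calls among the GF+HFM libraries, 9 had as many in each condition, and 0 had more in CV+HFM, while 86.5% of all sites were called in more GF+HFM libraries. The 0 of 70 called in CV+HFM alone, a count that allows up to 4.29%, stands against 2.67% of all sites. All 8 libraries called 8 of the 70 sites (11.4%), against 7.56% of all sites, and 19 of the 70 were called in 1 library, against 21.6%. The count found in every GF+HFM list and no CV+HFM list was 2 of 70, against 2.79% of all sites. At these 2, Fisher's exact test (two-sided) gave its smallest p of 0.0286, and 0.824 after Benjamini-Hochberg adjustment over 45552 sites. No site of the 45552 passed after adjustment, and 1269 had an unadjusted p under 0.05. Without both short CV+HFM lists, the count was again 2 of 70, and 29 of 70 sites (41.4%) were called in all 6 other libraries, against 38.1% of all sites. Without GF+HFM 2 the count was 5 of 71 (7.04%), against 5.60% of all sites, and without CV+HFM 1 it was 5 of 70 (7.14%), against 10.9%.

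**Figure D3:**
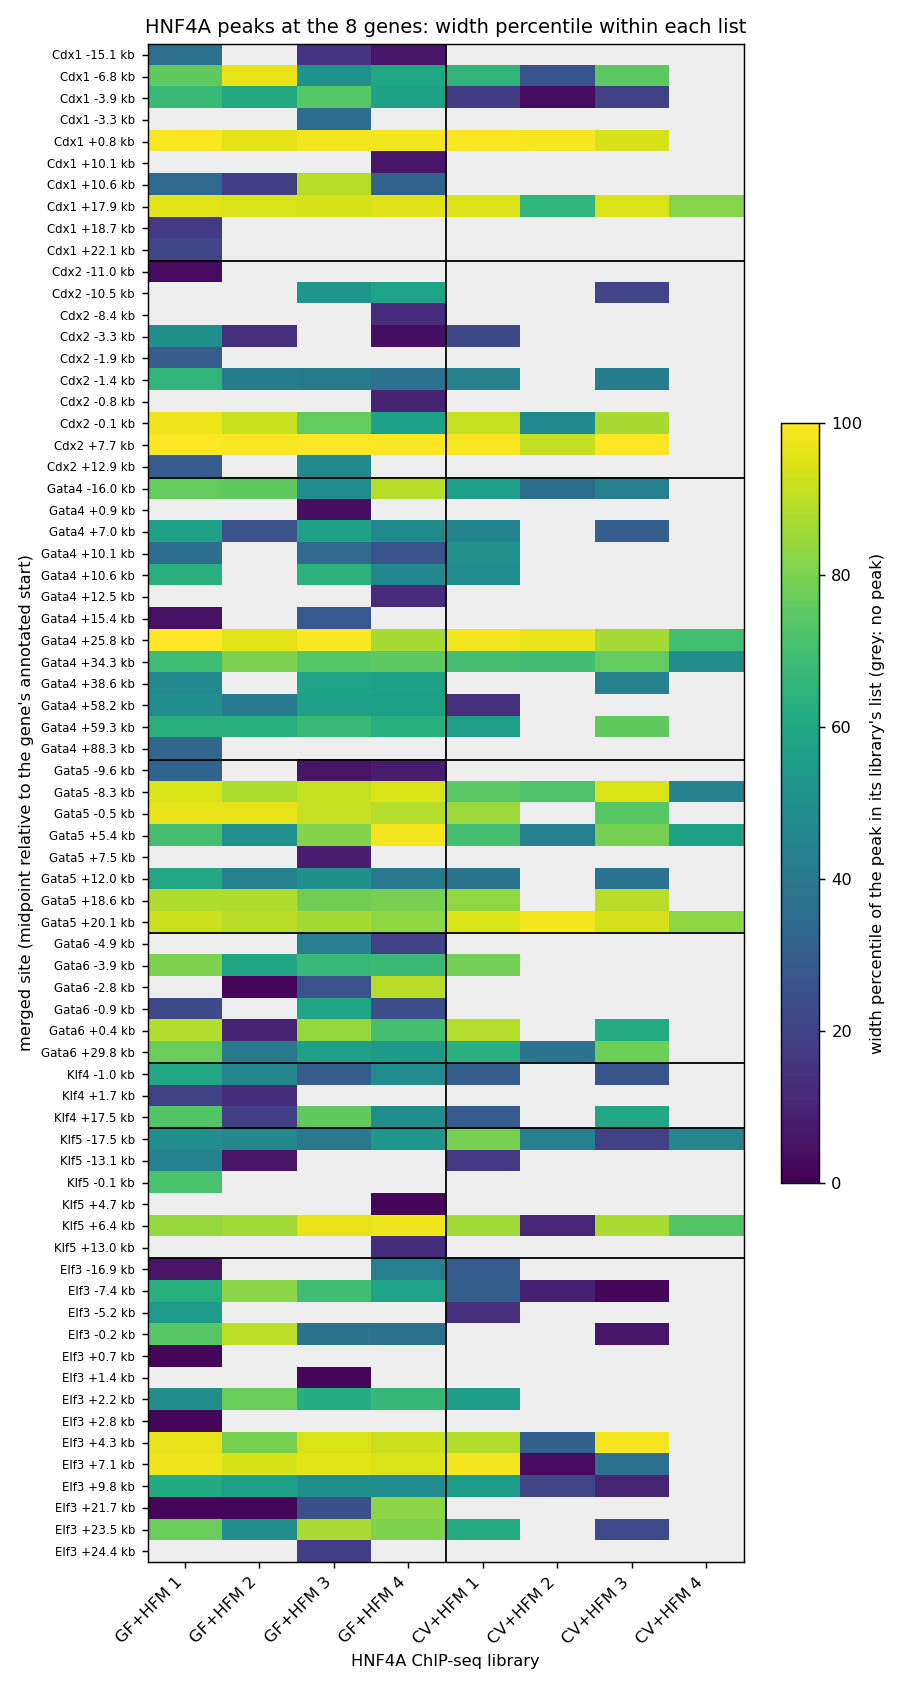
Width percentile of the peak within its own list (color, 0 to 100) for the 70 sites (rows, named by gene and distance of the midpoint from the annotated gene start) in the 8 libraries (columns). Grey marks no peak, horizontal lines separate genes, and the vertical line separates GF+HFM from CV+HFM. Yellow rows such as Cdx2 at +7.7 kb stay yellow across most libraries, and the column of CV+HFM 4 has 8 colored cells.

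Between them, the 8 windows held 56, 39, 51 and 52 called sites in GF+HFM replicates 1 to 4 and 38, 19, 32 and 8 in CV+HFM replicates 1 to 4. This is 0.134% to 0.161% of each GF+HFM library's called sites and 0.137% to 0.217% in CV+HFM, so the ranges overlapped once list length was taken into account. Per gene, sites called did not overlap between groups at 2 of 8 genes, Cdx1 and Gata6, both lower in CV+HFM, against 12.2% of the 14640 protein-coding genes with a site. They also did not overlap at 11 of the 28 other intestinal transcription factor genes and 3 of the 23 family relatives. Among marker genes this was so at 3 of 10 enterocyte genes and 0 of 10 genes of other cell types or organs. These comparisons were not matched for the number of sites per gene. With 4 mice against 4, an exact permutation test cannot give a two-sided p below 0.0286. No gene passed after Benjamini-Hochberg adjustment over all 14640 (1788 had an unadjusted p under 0.05). Without GF+HFM 2, 6 of the 8 genes did not overlap, against 20.8% of genes. As a share of each library's called sites, 1 of 8 genes, Gata6, did not overlap, against 9.31% of genes in either direction, and no gene passed after adjustment (1363 unadjusted). In the same 4 lists, in the order above, the counts were 6 of 28, 1 of 23, 5 of 10 and 0 of 10. Without GF+HFM 4 the count among the 8 genes was 0, against 11.5% of genes, and without CV+HFM 1 it was 2, against 23.1%. On this scale the CV+HFM mean was the higher one at Cdx1, Gata4, Gata5 and Klf5 and the lower one at Cdx2, Gata6, Klf4 and Elf3, while the mean number of called sites was lower in CV+HFM at all 8 genes.

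**Figure D4:**
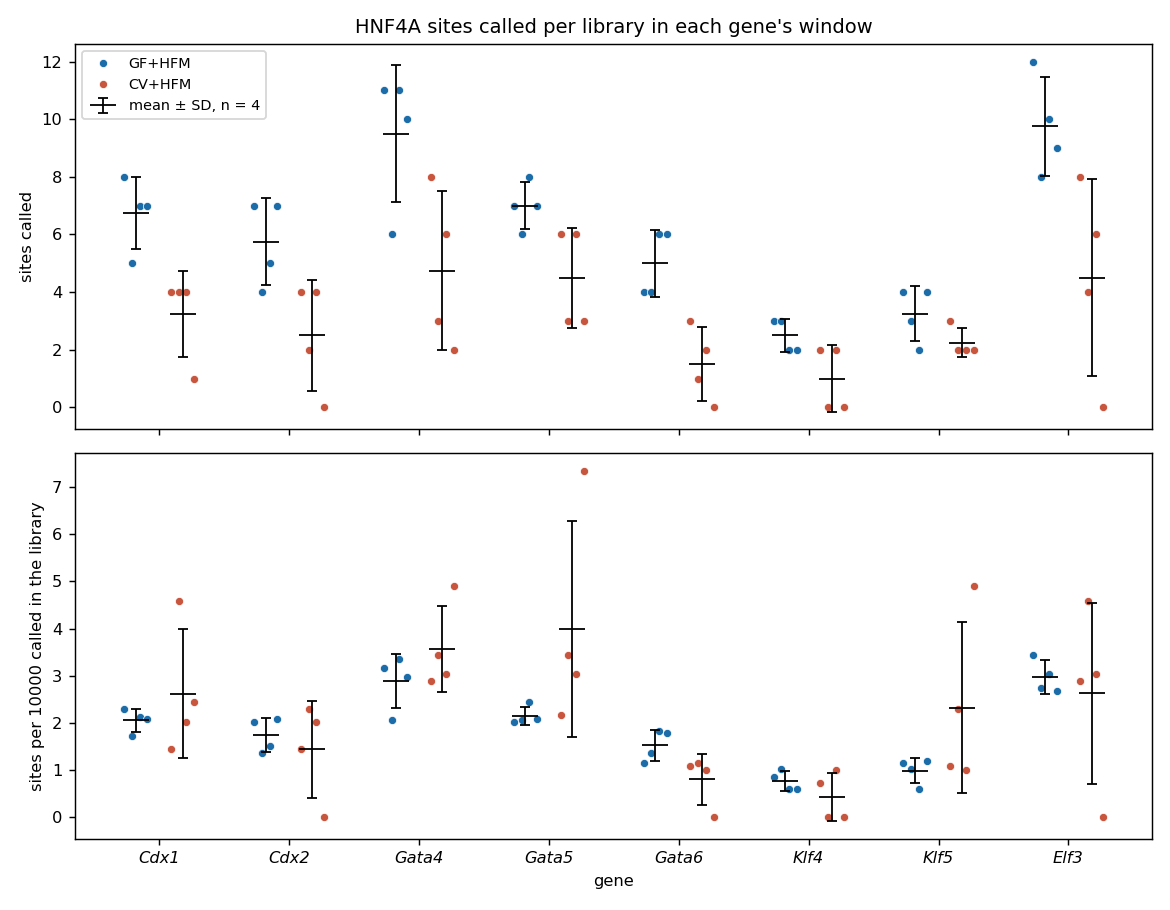
HNF4A sites called in each gene's window per library (upper panel) and the same per 10000 sites called in that library (lower panel). Points are the 4 GF+HFM (blue) and 4 CV+HFM (red) libraries, and black bars are the mean ± SD. The groups separate at Cdx1 and Gata6 in the upper panel, and at Gata6 in the lower one by a narrow gap.

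Cdx2 (ENSMUSG00000029646.3, chr5:148112381-148118846, minus strand), the main caudal factor of the intestine, carried the highest-ranked site of the 8 genes. It lies 355 bp past the 3′ end of the gene, at chr5:148110324-148112026, and its peak was 1348, 1001, 1659 and 1658 bp wide in GF+HFM replicates 1 to 4 and 1022, 314 and 990 bp in CV+HFM replicates 1 to 3, with no peak in CV+HFM 4. These widths are percentiles of 99.5 ± 0.217 (SD, n = 4) in GF+HFM and 96.5 ± 5.03 (SD, n = 3) in CV+HFM, so it ranked near the top of every list that called it. A site over the Cdx2 start, chr5:148118487-148119401, was called in the same 7 libraries. The window of 10 sites had 7, 4, 5 and 7 called in GF+HFM and 4, 2, 4 and 0 in CV+HFM, which overlap at 4 (exact permutation test, two-sided, p = 0.0857).

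Cdx1 (ENSMUSG00000024619.8, chr18:61178516-61195853, minus strand), the paralog of Cdx2, had a site 36 bp past its 3′ end at chr18:61177346-61178480 that all 8 libraries called. Its width was 803, 640, 907 and 1135 bp in GF+HFM and 692, 216, 560 and 215 bp in CV+HFM. The highest-ranked Cdx1 site, in intron 1 at chr18:61194402-61195803, was 1299, 691, 1257 and 1382 bp wide in GF+HFM and 1058, 457 and 556 bp in CV+HFM replicates 1 to 3, again with no peak in CV+HFM 4. In the same intron, chr18:61184851-61185620 was called in GF+HFM alone, at widths of 259, 206, 770 and 362 bp and percentiles of 34.8, 18.2, 89.4 and 31.7, so 3 of its 4 peaks were narrower than the median of their lists. Cdx1 sites called were 8, 5, 7 and 7 in GF+HFM (6.75 ± 1.26, SD, n = 4) and 4, 4, 4 and 1 in CV+HFM (3.25 ± 1.5, SD, n = 4). Every GF+HFM value exceeded every CV+HFM value (exact permutation test, two-sided, p = 0.0286, adjusted p = 0.234). Per 10000 called sites, the groups overlapped, with values from 1.72 to 2.3 for GF+HFM and from 1.44 to 4.58 for CV+HFM (p = 0.629, exact permutation test).

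Gata4 (ENSMUSG00000021944.8, chr14:63817759-63890529, minus strand), the GATA factor of proximal small intestine, had 13 sites, 11 of them in its gene body. The site at chr14:63863888-63865496 covers the starts of 3 of its transcripts and was called in all 8 libraries, 1590, 692, 1513 and 835 bp wide in GF+HFM and 888, 388, 449 and 155 bp in CV+HFM. Its percentiles were 95.5 ± 6.00 (SD, n = 4) in GF+HFM and 87.8 ± 13.1 (SD, n = 4) in CV+HFM. The widest peaks of the 8 libraries there shared no base. The other Gata4 site in all 8 libraries, in intron 2 at chr14:63855931-63856596, had widths of 410, 444, 565 and 666 bp in GF+HFM and 408, 225, 373 and 101 bp in CV+HFM. Sites called were 11, 6, 11 and 10 in GF+HFM and 8, 3, 6 and 2 in CV+HFM, which overlap through GF+HFM 2 (exact permutation test, two-sided, p = 0.0857). Per 10000 called, the direction of the means was the opposite, with 2.88 ± 0.571 (SD, n = 4) in GF+HFM against 3.56 ± 0.915 (SD, n = 4) in CV+HFM (p = 0.343, exact permutation test). CV+HFM 1 and 3 lay within the GF+HFM range.

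Gata5 (ENSMUSG00000015627.4, chr2:180059838-180069404, minus strand) had 3 sites in all 8 libraries, the most of the 8 genes. The highest-ranked lies 10175 bp past the 3′ end at chr2:180048901-180049663, with widths of 678, 545, 720 and 763 bp in GF+HFM and 676, 441, 549 and 223 bp in CV+HFM. Its percentiles were 87.9 ± 4.04 (SD, n = 4) and 92.3 ± 6.49 (SD, n = 4), and both widths and percentiles overlapped between the groups. The site in intron 3, chr2:180063188-180064776, was 421, 300, 644 and 1439 bp wide in GF+HFM and 408, 174, 395 and 117 bp in CV+HFM. The upstream site, chr2:180077029-180078457, was 741, 520, 809 and 1077 bp wide in GF+HFM and 432, 233, 565 and 94 bp in CV+HFM, so that GF+HFM 2 lay below CV+HFM 3. Sites called at Gata5 were 7, 6, 8 and 7 in GF+HFM and 6, 3, 6 and 3 in CV+HFM, and they met at 6 (exact permutation test, two-sided, p = 0.0857). Per 10000 called, the values were 2.14 ± 0.195 (SD, n = 4) in GF+HFM and 4.00 ± 2.29 (SD, n = 4) in CV+HFM, the opposite direction, with overlap (p = 0.0571, exact permutation test).

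Gata6 (ENSMUSG00000005836.8, chr18:11052508-11085633, plus strand), which is also expressed in crypts, had 6 sites and none in all 8 libraries. Its highest-ranked site, 3546 bp upstream at chr18:11048330-11048962, was 506, 330, 510 and 593 bp wide in GF+HFM, 463 bp in CV+HFM 1, and absent from the other 3 CV+HFM lists. The site over the gene start, chr18:11052496-11053283, had a peak in every GF+HFM list and in replicates 1 and 3 of CV+HFM. Sites called were 4, 4, 6 and 6 in GF+HFM (5.00 ± 1.15, SD, n = 4) and 3, 1, 2 and 0 in CV+HFM (1.5 ± 1.29, SD, n = 4), with no overlap (exact permutation test, two-sided, p = 0.0286, adjusted p = 0.234). Per 10000 called, Gata6 had 1.15, 1.37, 1.83 and 1.78 in GF+HFM and 1.08, 1.14, 1.01 and 0 in CV+HFM, where the lowest GF+HFM and the highest CV+HFM value are nearly equal (p = 0.0286, adjusted p = 0.307, exact permutation test). The numbers of called sites at Gata6 overlapped when peaks under 300 bp were left out (p = 0.143), when 50% of a site had to be covered (p = 0.0857) and with 50 kb flanks (p = 0.0571, exact permutation tests).

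Klf5 (ENSMUSG00000005148.7, chr14:99697910-99712624, plus strand) had 6 sites, of which 2 were in all 8 libraries and 3 in 1 library. The site in intron 3 at chr14:99703627-99704936 was 548, 502, 1054 and 1310 bp wide in GF+HFM and 534, 121, 455 and 168 bp in CV+HFM. The upstream site at chr14:99680146-99680731, which holds the exact HNF4 motif shown above, was narrower in 7 of the 8 libraries, at 309, 285, 356 and 483 bp in GF+HFM and 468, 174, 197 and 95 bp in CV+HFM. The site over the Klf5 start was called in GF+HFM 1 alone. Sites called were 4, 3, 2 and 4 in GF+HFM and 3, 2, 2 and 2 in CV+HFM and overlapped at 2 and 3 (exact permutation test, two-sided, p = 0.257). Per 10000 called, the Klf5 means went the other way, from 0.993 ± 0.265 (SD, n = 4) in GF+HFM to 2.32 ± 1.81 (SD, n = 4) in CV+HFM, where the values overlapped (p = 0.257, exact permutation test). The short lists, CV+HFM 2 and 4, had 2.29 and 4.89. CV+HFM 1 and 3 had 1.08 and 1.01, within the GF+HFM range of 0.609 to 1.19. Klf4 (ENSMUSG00000003032.7, chr4:55540013-55545347, minus strand) had the fewest sites, 2 of them called in 6 libraries each and 1 in 2. Its highest-ranked site, 11860 bp past the 3′ end at chr4:55527572-55528153, was 436, 207, 582 and 463 bp wide in GF+HFM and 250 and 305 bp in CV+HFM 1 and 3, a mean percentile of 50.9. Sites called at Klf4 were 3, 3, 2 and 2 in GF+HFM and 2, 0, 2 and 0 in CV+HFM (exact permutation test, two-sided, p = 0.171).

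Elf3 (ENSMUSG00000003051.7, chr1:137150151-137155049, minus strand), the shortest gene body of the 8, had 14 sites, 8 of them called in all 4 GF+HFM libraries and none in all 8. The highest-ranked lies over exon 9 at the 3′ end, chr1:137150201-137151242, with widths of 837, 438, 912 and 966 bp in GF+HFM and 565, 153 and 742 bp in CV+HFM replicates 1 to 3. A site 1646 bp past the 3′ end, chr1:137147405-137148505, was 896, 634, 1000 and 1075 bp wide in GF+HFM and 889, 113 and 240 bp in CV+HFM replicates 1 to 3, which is a percentile of 98.3 in CV+HFM 1 and of 3.04 in CV+HFM 2. The site called in GF+HFM alone, chr1:137132972-137133728, was 157, 165, 289 and 757 bp wide, at percentiles of 1.47, 1.79, 24.5 and 82.5, so it was narrow in 3 of the 4 lists. CV+HFM 4 called 0 of the 14 sites, and the other counts were 12, 8, 10 and 9 in GF+HFM and 8, 4 and 6 in CV+HFM, which meet at 8 (exact permutation test, two-sided, p = 0.0571).

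The relative width rank was tested at the 8 sites called in all 8 libraries, in limma on normal scores over the 3445 such sites, where 0.116% were called at an adjusted p under 0.05 (4 sites, and 398 unadjusted). Of the 8, 0 passed after adjustment and 2 had an unadjusted p under 0.05, both at a higher rank in CV+HFM. These were the Gata5 downstream site, with a difference of 0.92 ± 0.38 (SE) in normal scores (limma adjusted p = 0.365), and the Klf5 upstream site, with 0.99 ± 0.45 (SE; limma adjusted p = 0.414). Among these 3445 sites the Gata5 site was at percentiles of 62.0, 57.5, 48.1 and 38.3 in GF+HFM and 73.5, 95.7, 76.5 and 77.9 in CV+HFM, which do not overlap. The Klf5 upstream site was at 2.02, 1.57, 1.18 and 4.17 in GF+HFM and 32.4, 18.6, 0.639 and 34.5 in CV+HFM, where CV+HFM 3 overlapped GF+HFM. The other 6 had adjusted p from 0.555 to 0.988.

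Sites that every GF+HFM library called were called in more CV+HFM lists where they ranked wider. Of 35 such sites at the 8 genes, 32, 19, 30 and 8 were called in CV+HFM replicates 1 to 4, which is 91.4%, 54.3%, 85.7% and 22.9%, against 91.6%, 37.1%, 78.0% and 17.0% of 23049 such sites in all. Both sets were chosen by their calls in GF+HFM only, so missing calls in CV+HFM are in part set by that choice. The sites were divided by quartile of mean GF+HFM width percentile. In the widest quartile, 12 sites of the 8 genes were called at 100%, 83.3%, 100% and 41.7%, against 99.7%, 74.2%, 98.3% and 44.8% of all. In the second quartile, 11 sites were called at 81.8%, 27.3%, 81.8% and 9.09%, against 93.4%, 20.5%, 76.1% and 5.52%. The narrowest quartile held 1 site of the 8 genes, the Elf3 site called in GF+HFM alone.

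**Figure D5:**
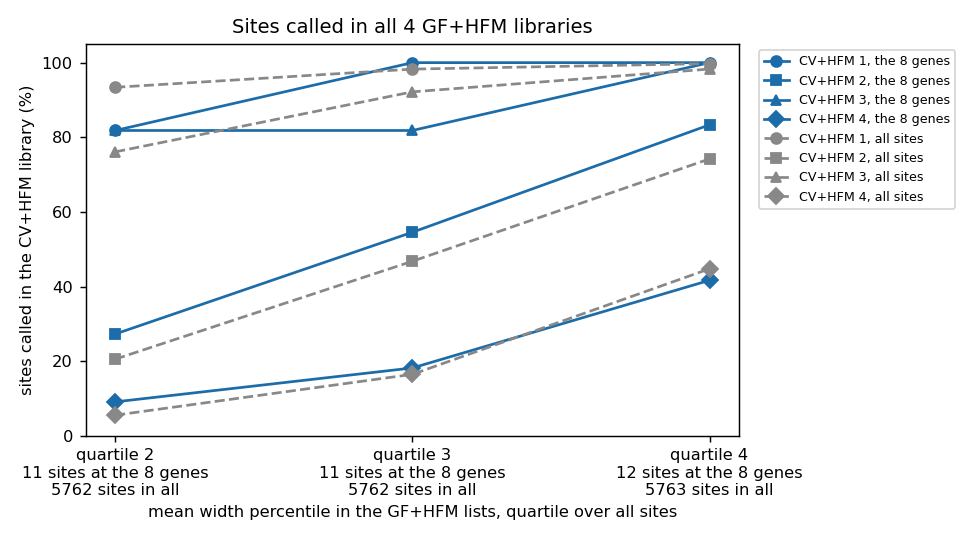
Percent of the sites called in all 4 GF+HFM libraries that each CV+HFM library also called (y axis), by quartile of mean GF+HFM width percentile (x axis, quartile 4 the widest). Blue lines are the sites at the 8 genes (11, 11 and 12) and grey dashed lines all such sites, with 1 marker shape per CV+HFM library. Every line is at its highest in quartile 4, and CV+HFM 2 and 4 lie lowest in both sets.

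For each of the 8 genes, the protein-coding gene with the most alike bp covered by peaks over the 8 libraries was found by the smallest summed absolute difference. These were Tecpr2 for Cdx1 (1847 bp of 22290 covered in all), Kazn for Cdx2 (641 of 18157), Pmaip1 for Gata4 (1255 of 26625), Klhdc7b for Gata5 (1490 of 26013), Tet2 for Gata6 (771 of 11155), Fndc5 for Klf4 (373 of 4516), Map2k4 for Klf5 (757 of 9285) and Ap1g1 for Elf3 (1231 of 24572). The likeness is of coverage by library alone.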

How the data were processed

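The authors aligned HNF4A ChIP-seq reads with Bowtie2 (build mm9) and ran MACS2 2.1.1.20160309 for each mouse against input DNA (1 input library per condition) at a false discovery rate under 0.05. The deposited lists, other than a name per peak, hold positions in bp only, without read count, fold, p-value or summit, so the depth is unknown. Peak names skip 208 to 422 numbers per list, and those peaks were not used here. In or next to the windows of the 8 genes, 1 number was skipped, at Klf5 in CV+HFM 2. No peak passed the end of a chromosome of NCBIM37, and 9 unplaced sequence names are not in that reference. RNA-seq, H3K27ac and the conditions without HFM were not analysed here. The 8 genes and all lists were chosen with earlier results of these data known.

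A merged site counted as called in each library that contributed a peak to it. Sites were compared by Fisher's exact test and genes by exact permutation tests over the 70 relabellings, two-sided, with Benjamini-Hochberg adjustment over all sites or all genes with a site (scipy 1.17.1). Differences in width rank were fitted in limma 3.58.1 (R 4.3.3). Scripts were tested on simulated data. All 8 genes were described, with per-library values for sites called in all 8 libraries, for those found in every GF+HFM and no CV+HFM list, and for those of highest mean width percentile. The alternatives were other peak sets, other windows, a 50% coverage minimum, other width scales, a replicate block and each library left out. Added after the lists were seen was leaving out both short CV+HFM lists. Replicates are separate mice.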

Additional observations from a re-analysis of the deposited data

Results flagged for a closer look

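Of 32 groups of 4 values tested (sites called and bp covered, per gene and condition), 2 held a value whose gap to the nearest other exceeded Dixon's 95% critical share of the group's range, where chance gives about 1 in 20. The Cdx1 window had 1 called site in CV+HFM 4 and 4 in each other CV+HFM library. The Klf5 window had 3 called sites in CV+HFM 1 and 2 in each other CV+HFM library. In both the gap was the whole range, 1 of 1, because the other 3 values were tied. The rate of 1 in 20 is for continuous values and does not hold for such tied counts. CV+HFM 4 has the shortest list and CV+HFM 1 the longest of its condition, and their part in these values was not tested.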

How the results depend on the processing

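Sites found in every GF+HFM list and no CV+HFM list were 2 of 70. With each list cut to its widest 4533 peaks they numbered 0 of 22, against 0.515% of all sites. With 5 kb flanks they numbered 1 of 49, against 2.79%. With each library left out they numbered 2 to 5, against 2.80% to 10.9% (5 without GF+HFM 2 or CV+HFM 1). Genes without overlap (2 of 8, Cdx1 and Gata6) numbered 0 with the widest peaks, against 1.10% of genes with a site. With 50 kb flanks they numbered 1 (Cdx1), against 17.7%. With each library left out they numbered 2 to 6 (6 without GF+HFM 2), against 12.2% to 38.2%. With peaks of at least 300 bp they were Cdx1 and Elf3, against 11.5% of genes. With 50% of a site covered they were Cdx1 and Klf4 (17.8%), and with 5 kb flanks Cdx1, Gata6 and Elf3 (9.61%). As shares of called sites (1 of 8) they numbered 0 with peaks of at least 300 bp (7.70% of genes) and with the widest peaks (12.5%). They also numbered 0 with 50% of a site covered (8.44%) and with 50 kb flanks (9.35%). With each library left out they numbered 0 to 2, against 10.9% to 23.1% (0 without GF+HFM 4, 2 without CV+HFM 1). With the widest peaks, the differences at Gata4 and Klf5 turned to 0.25 more sites in CV+HFM each. Those at Cdx1 and Gata6 (CV+HFM minus GF+HFM) went from -3.5 each to -0.75 and -0.25, and that at Klf4 from -1.5 to 0. Sites with changed width rank (4 of 3445) numbered 0 on centred log2 widths, 1 without both short CV+HFM lists, and 0 to 21 with each library left out: 0 without GF+HFM 1, 3 or 4 or CV+HFM 2 or 3, 14 without GF+HFM 2, 21 without CV+HFM 1 and 1 without CV+HFM 4. The difference in normal scores at the Gata5 intron 3 site (-0.02) became 0.027 without GF+HFM 3, 0.59 without GF+HFM 4, 0.12 without CV+HFM 1 and 0.099 without CV+HFM 2, in a range of -0.49 to 0.59 with each library left out. At the Cdx1 downstream site (-0.20) it became 0.043 without CV+HFM 2, in a range of -0.30 to 0.043, and 0.051 without both short lists. The cause of these changes was not tested, apart from fewer peaks or libraries by construction. Over all changes of setting, these included, 98 of 120 per-gene differences and 90 of 96 width differences kept direction and side of the threshold. The Klf4 difference of 0 with the widest peaks is counted among those kept. The threshold of 0.05 was on the unadjusted p for genes and on the adjusted p for widths. No width difference at a site of the 8 genes passed it in any setting, so the width count is of direction alone. With the replicate block or without both short lists, the permutation test cannot go below 0.05. The side of the threshold was therefore fixed for genes in those settings.

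Replicate numbers are shared by the groups, and it is not known whether they pair the mice. Deviations of same-numbered libraries over 3445 sites correlated at 0.05, 0.07, -0.08 and 0.14. Those of libraries with unlike numbers correlated at -0.13 to 0.14, and these values cannot decide the question. With the replicate block, 6 genes had fewer sites called in every pair (30.7% of genes with a site), 2 had a share that moved one way in every pair (19.7% of genes), and 4 sites changed width rank; a permutation within 4 pairs cannot give a p below 0.125. Without read depth, a missing peak cannot be told from a site under the threshold.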
